A study of Mus musculus with 4 samples.

Results

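The B cell genes Cd79a, Cd79b, Ms4a1, Pax5, Blk, Cr2 and Ebf1, together with the transcription factor gene Zbtb32, were examined in peritoneal macrophage RNA of CD13 knockout and wild type mice. All probes whose platform gene symbol is one of these 8 genes were taken. The annotation used here gave 14 probes for 7 of the 8 genes and named no probe for Cd79a. A probe counted as measured when its detection p-value, the chance of its signal on background beads, was under 0.01 on at least 2 of the 4 arrays. By that rule 7 probes of 5 genes were measured, of 10335 genes and unnamed probes measured in all: Cd79b, Blk, Ms4a1, Ebf1 and Zbtb32. The B cell genes were chosen for what they encode, but with earlier results of these data known. Zbtb32 was selected on its lower intensity in the knockout, so its difference between the groups is given as a description with no test.

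The CD13 knockout (KO) group had 2 arrays and the wild type (WT) group had 2 arrays, each from resting peritoneal macrophages of the C57BL/6 strain, with no other treatment given in the labels. CD13 is a cell-surface aminopeptidase encoded by Anpep. The arrays were Illumina MouseWG-6 BeadChips, on which labelled cRNA binds beads that carry an oligonucleotide of each gene. The sources used here give neither the number of mice per array nor the allele or the purity of the cells. Nothing says that replicates came from separate mice, so each p-value reflects the spread of these arrays alone, and that spread may be technical.

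A B cell senses antigen through its receptor, a membrane immunoglobulin held with the signalling chains CD79A and CD79B, which kinases of the Src family such as BLK phosphorylate. The transcription factors EBF1 and PAX5 establish and keep the B cell fate and switch on many genes of the receptor complex. In mice the peritoneal cavity is known for its resident B cells, many of them of the B-1 type, which share the cavity with macrophages and can be recovered in the same lavage. ZBTB32 is a zinc finger repressor of the BTB domain family, known from mouse lymphocytes, where it restrains cytokine genes in T cells and recall responses of memory B cells.

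The median deposited intensity was 122.4 and 109.0 on KO arrays 1 and 2 and 167.1 and 127.6 on WT arrays 1 and 2, so group differences were taken from background-corrected, quantile normalized log2 values. Anpep, which checks the labels, was 5.33-fold lower in KO than in WT (log2 change -2.41 ± 0.18 (SE), limma adjusted p = 0.0265). Macrophage markers were detected on all arrays, since 10 of the 12 listed had a probe and all 10 were measured. Over all genes 5 were called higher and 5 lower in KO, at a limma adjusted p under 0.05. The called share was 0.0968% of 10335. With 2 arrays a group, the smallest two-sided p of an exact permutation test of 1 gene is 0.333.

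Among the members, Cd79b of the B cell receptor complex and the kinase gene Blk were lower on average in KO. The shortfall was carried mostly by 1 of the 2 KO arrays. Other chains of the complex, Cd79a, Ighm and Ighd, had no probe in the annotation. Cd79b, the signalling chain that pairs with CD79A, had a normalized log2 intensity of 9.63 and 10.78 on KO arrays 1 and 2, against 11.02 and 11.44 on WT arrays 1 and 2. Both KO arrays lay below both WT arrays, but KO array 2 was nearer to the WT arrays than to KO array 1. The log2 change was -1.02 ± 0.40 (SE, n = 2 arrays each), a 2.02-fold lower level in KO, and it did not pass (limma adjusted p = 0.53). The remaining Cd79b probe, ILMN_2661523, gave 9.39 and 10.45 in KO and 10.92 and 11.30 in WT, a log2 change of -1.19 ± 0.38 that did not pass either when every measured probe was fitted (limma adjusted p = 0.433). The 2 probes thus gave the same order of the 4 arrays.

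Blk, a Src family kinase largely restricted to the B lineage, showed the same arrangement. Its brightest probe, ILMN_2976441, had log2 intensities of 9.12 and 10.03 in KO and 10.26 and 10.38 in WT. On the log2 scale KO array 2 was 0.23 below the nearest WT array, while the KO arrays were 0.91 apart. The log2 change was -0.74 ± 0.32 (limma adjusted p = 0.565). Another measured probe, ILMN_2976440, gave 8.60 and 9.36 in KO and 9.71 and 9.71 in WT, a log2 change of -0.73 ± 0.29. The third Blk probe was not measured, with detection p-values of 0.254 and 0.578 in KO and 0.0118 and 0.0118 in WT, just outside the threshold in WT.

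Ms4a1 encodes CD20, a membrane protein of mature B cells. Its deposited intensity was 140.1 and 137.0 in KO, where neither array was above background, and 289.2 and 285.8 in WT, where both were. The level in KO is therefore only a bound, and Ms4a1 was at least 1.61-fold lower there, the KO arrays being set to the lowest value of any detected probe where their own was lower (limma adjusted p = 0.356 for the fitted values, whose means were 5.95 in KO and 7.18 in WT on the log2 scale). Ms4a1 entered the measured genes only through the group in which it was higher, so its presence among them is not independent of that difference.

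Ebf1, the transcription factor that starts the B cell programme with PAX5, was the weakest of the measured members. Its measured probe, ILMN_1245076, had log2 intensities of 6.79 and 6.91 in KO and 7.29 and 7.06 in WT. The groups did not overlap, yet the gap between the nearest arrays was 0.15, smaller than the distance between the WT arrays (0.23). The log2 change was -0.32 ± 0.19 (limma adjusted p = 0.681). With detection p-values of 0.00214 and 0.00427 in KO, the probe lay just inside the threshold there. This probe is assigned to a cDNA clone. The probe assigned to the RefSeq transcript of Ebf1 had deposited intensities of 117.4 and 111.1 in KO and 212.4 and 188.8 in WT and was not measured. It reached the threshold on WT array 2 alone, with a detection p-value of 0.00748 there.

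Pax5 and Cr2 were not measured. Pax5, which maintains B cell identity, is read by 1 probe with detection p-values of 0.899 and 0.746 in KO and 0.315 and 0.318 in WT. Cr2 encodes the complement receptor CD21 of mature B cells, and its 2 probes had detection p-values from 0.341 to 0.944 in KO and from 0.281 to 0.714 in WT. Both genes were at background level in both groups, so no difference could be measured for them. Probes detected in WT and not in KO were thus that of Ms4a1 and, on 1 WT array, that of the Ebf1 transcript.

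**Figure D1:**
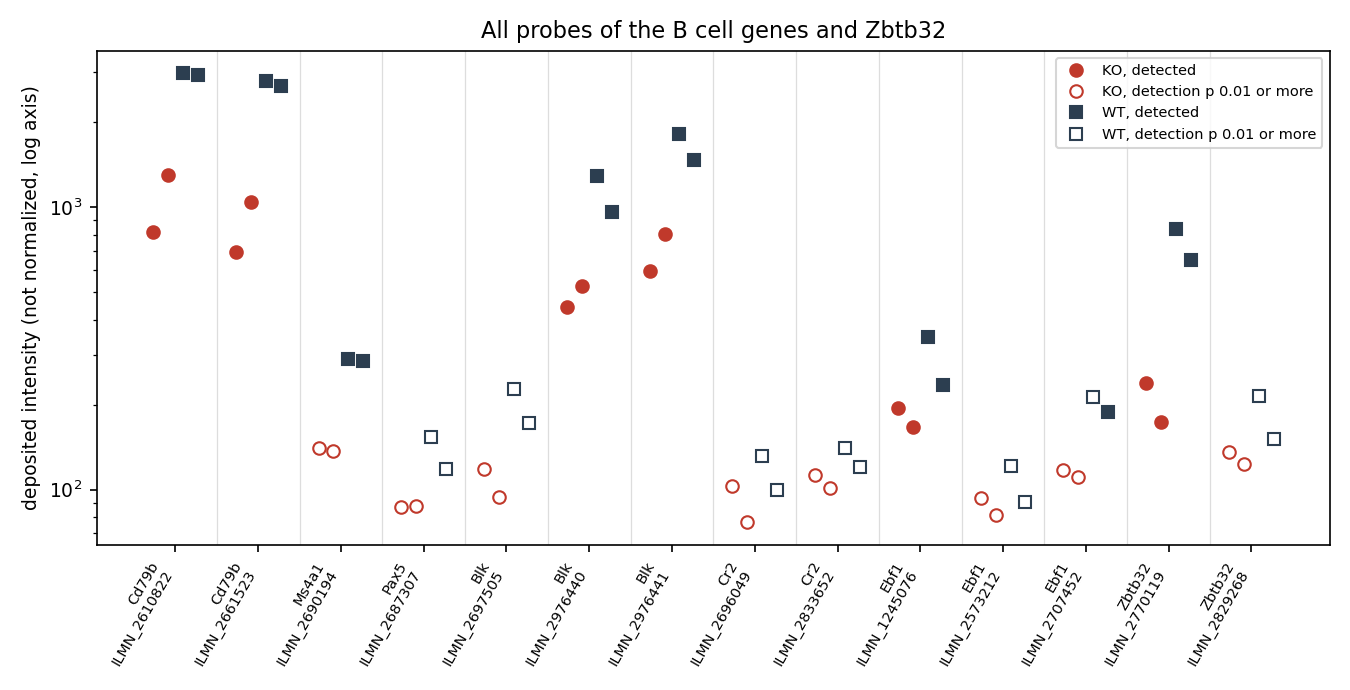
Deposited, non-normalized intensity (log axis) of all 14 probes on the 2 KO arrays (circles) and the 2 WT arrays (squares), each gene's probes side by side. Filled symbols have a detection p under 0.01. The KO symbols of both Cd79b probes lie between 695 and 1296, against 2683 to 2982 for WT, while Pax5 and Cr2 are open on every array. The medians of the KO arrays were lower too (122.4 and 109.0, against 167.1 and 127.6 in WT), so these gaps are not normalized differences.

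Of the 4 measured B cell genes, 0 were called by limma (0.0484% of all genes were called lower) and 2, Cd79b and Ms4a1, had an unadjusted p under 0.05 (9.34% of all genes did). All 4 had both KO arrays below both WT arrays, as did 19.1% of all genes tested, and 48.2% of all genes had a lower mean in KO. These 4 genes were chosen with earlier results known and 1 of them was measured through WT alone, so their count is a description. In bulk RNA, fewer B cells in a sample and less of a transcript in each B cell cannot be told apart.

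For Cd79b and Blk the KO arrays differed from each other by more than the group means did, by 1.15 and 0.91 on the log2 scale. Against the WT mean, Cd79b was -1.59 on KO array 1 and -0.44 on KO array 2 on the log2 scale. Blk was -1.20 on KO array 1 and -0.29 on KO array 2, and Ms4a1, below detection on both, -1.47 and -0.99. Ebf1 was close to level between them, at -0.38 and -0.26. Zbtb32 ran the other way, at -1.70 on KO array 1 and -2.00 on KO array 2. Without KO array 1 the log2 change of Cd79b was -0.44 (limma adjusted p = 0.608) and that of Blk -0.29 (limma adjusted p = 0.672), while without KO array 2 they were -1.59 and -1.20 (limma adjusted p = 0.256 for both). The size of the difference for both genes therefore depends on which KO array is used.

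**Figure D2:**
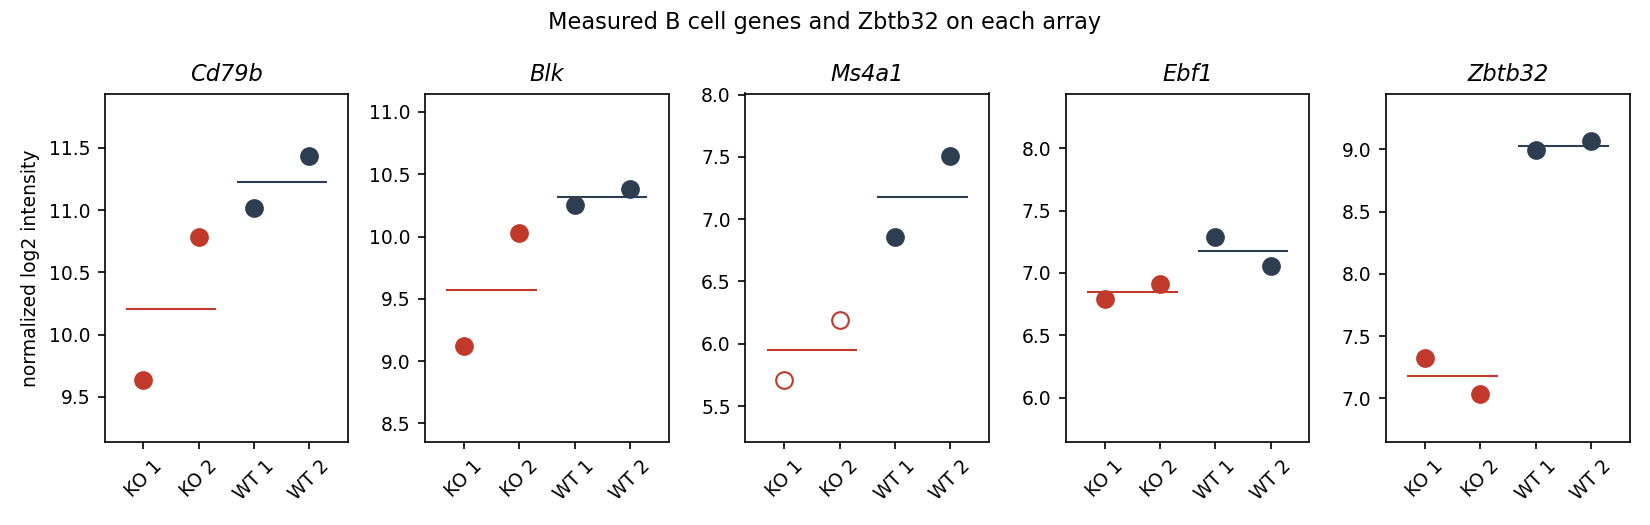
Normalized log2 intensity of the 5 measured members on KO arrays 1 and 2 and WT arrays 1 and 2. Points are arrays, lines are group means, and open points have a detection p of 0.01 or more; every panel spans the same number of log2 units. For Cd79b and Blk the point of KO 2 lies nearer to the WT points than to KO 1, whereas both KO points of Zbtb32 lie far below WT.

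Zbtb32 had the lowest values relative to WT among the members. Its measured probe, ILMN_2770119, had deposited intensities of 238.9 and 173.4 in KO and 836.7 and 652.9 in WT, all above background. The normalized log2 intensities were 7.33 and 7.03 in KO and 8.99 and 9.06 in WT. Each pair of arrays lay close together and the groups were far apart, with a difference of -1.85 ± 0.19 (SE, n = 2 arrays each), a 3.60-fold lower mean in KO. Because this difference chose the gene, it is not tested here. The further Zbtb32 probe, ILMN_2829268, was not measured, with deposited intensities of 135.7 and 123.6 in KO and 215.4 and 151.5 in WT and detection p-values of 0.0171 or more on every array. The low end of Zbtb32 therefore rests on a single probe.

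RefSeq (GRCm38.p6) gives Zbtb32, on the minus strand of chromosome 7, more than one transcription start. The 250 bases upstream of each are shown because Zbtb32 stood furthest from WT among the members and the annotation used here does not tie a probe to either start. Capitals mark CCAAT, a promoter element bound by the factor NF-Y, on either strand. The first lies at chr7:30598910-30599159 and the other at chr7:30592943-30593192, each written 5′ to 3′ along the gene.
Zbtb32 upstream start: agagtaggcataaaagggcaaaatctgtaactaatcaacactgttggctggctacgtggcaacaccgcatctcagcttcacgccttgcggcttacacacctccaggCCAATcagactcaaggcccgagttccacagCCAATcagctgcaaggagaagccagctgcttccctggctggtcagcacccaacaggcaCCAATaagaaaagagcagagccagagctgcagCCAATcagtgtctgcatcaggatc
Zbtb32 downstream start: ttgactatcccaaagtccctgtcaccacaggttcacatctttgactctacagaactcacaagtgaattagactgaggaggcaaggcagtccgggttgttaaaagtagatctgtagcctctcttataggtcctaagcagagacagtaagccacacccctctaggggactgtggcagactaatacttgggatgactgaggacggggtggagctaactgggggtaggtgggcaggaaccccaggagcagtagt

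The upstream start held CCAAT 4 times, beginning at positions -144, -114, -56 and -24, where 0 is the annotated start, and the downstream start held none. The motif was searched after the sequences were seen. Of 32841 RefSeq promoters of this length, 33.9% held CCAAT at least once and 0.84% held it 4 or more times. Motifs of B cell factors were searched too, on both strands: the octamer ATTTGCAT (1.6% of promoters) and CCCNNGGG, the core of the early B cell factor motif (11.8%), were in neither window, nor were they in the promoters of Ebf1, Pax5, Cr2 or Cd79a in the same table. The table held promoters for 5 of the 8 members. The E-box CANNTG, which is common (66.2% of promoters), occurred 2 times in the upstream and 1 time in the downstream window of Zbtb32, and one of the 2 directly follows the CCAAT of position -114. These are matches of exact letters and not shown sites. The absence of a string does not show that a site is absent, since no mismatch was allowed. The Cd79a window holds CTCAAGGG, which differs from CCCNNGGG in a single letter.

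The genes next to Zbtb32 did not share its low values. Of the 6 protein-coding genes on each side of it in RefSeq order, 7 of 12 were measured, with log2 changes of -0.21 to 0.50, and 0 were called by limma (1, Hspb6, had an unadjusted p under 0.05). Kmt2b, a histone methyltransferase gene directly beside Zbtb32, had log2 intensities of 9.80 and 9.90 in KO and 9.85 and 9.76 in WT. Cd22, an inhibitory coreceptor of B cells, lies 16 genes from Zbtb32 and had values in the opposite direction to the measured B cell members. Its log2 intensities were 9.36 and 9.26 in KO and 8.55 and 8.22 in WT, a log2 change of 0.93 ± 0.20 that did not pass (limma adjusted p = 0.279). Another detected Cd22 probe gave a log2 change of 1.16. Zbtb32, Cd22 and Cd79a lie on the same chromosome as Anpep, which is 443 protein-coding genes from Zbtb32.

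**Figure D3:**
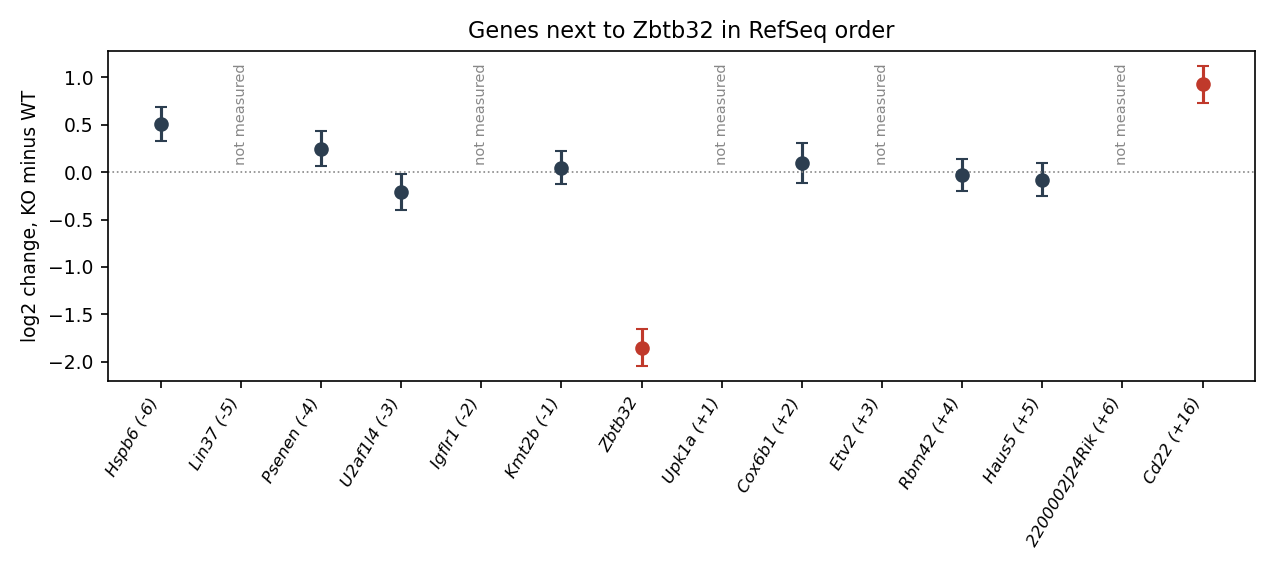
Log2 change (KO minus WT) with its moderated standard error for Zbtb32, the 6 protein-coding genes on each side of it in RefSeq order, and Cd22, with the number of genes from Zbtb32 in brackets. Zbtb32 is at -1.85 and Cd22 at 0.93, while the 7 measured genes around Zbtb32 lie between -0.21 and 0.50.

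The genes with the pattern most like each member over the 4 arrays were found as the smallest Euclidean distance between mean-centred log2 values, a description over 4 points that share the same normalization. Nearest to Cd79b were Mzb1 (distance 0.11), Ly6d (0.19) and Tbc1d10c (0.20). Nearest to Blk were Ripor2 (0.08), Map1lc3a (0.09) and Ggct (0.10), nearest to Ms4a1 Cbfa2t3 (0.13), Sh3yl1 (0.16) and Cadps2 (0.22), and nearest to Ebf1 Hmgn3, Gpsm1 and Clec2i (0.05 each). Zbtb32, whose change ranked 26 from the lowest of 10335, had no gene as close: Itgam was at 0.39, Nectin2 at 0.41 and Fam169b at 0.42. All 3 lie on the chromosome of Anpep, which carries 7.61% of the named genes tested. Because Zbtb32 was selected as lower in KO, its nearest genes are bound to be lower in KO too (log2 changes -1.59, -1.50 and -1.90). Their chromosome was not compared with that of other genes as low in KO, so no conclusion is drawn from it.

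Surface and identity markers of B cells, a list that holds the members Blk and Ms4a1, had mostly lower means in KO. Of 20 listed, 14 were measured, Ms4a1 through WT alone. Of the 14, 11 had a lower mean (48.2% of all genes) and 10 had both KO arrays below both WT arrays (19.1% of all genes). The median log2 change was -0.80, against 0.01 for all genes tested, and -0.69 over the 17 with a probe when no filter was applied, against 0.01. Limma called 0 of them and 10 had an unadjusted p under 0.05 (9.34% of all genes did). Cd22 was among these 10 with a higher mean in KO (log2 change 0.93 ± 0.20). Fcmr, the receptor for IgM, had log2 intensities of 10.46 and 10.66 in KO and 11.44 and 11.38 in WT (log2 change -0.85 ± 0.18, limma adjusted p = 0.277). Chosen after their values were seen, Tnfrsf13c, the receptor for the survival factor BAFF (-1.44 ± 0.39), Fcrla (-1.22 ± 0.36), Ly6d (-1.15 ± 0.42) and Cxcr5, a chemokine receptor that guides B cells to follicles (-1.12 ± 0.28), had the lowest values beside Ms4a1. Fcer2a, the low-affinity IgE receptor, had a log2 change of 0.32 ± 0.33, and Cd37 of -0.07 ± 0.20.

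Macrophage markers had mostly lower means in KO as well. Of the 10 measured, 8 had a lower mean and 6 had both KO arrays below both WT arrays (19.1% of all genes), with a median log2 change of -0.46. Limma called 0 of them and 2 had an unadjusted p under 0.05 (9.34% of all genes did). Itgam, the CD11b integrin chain, had log2 intensities of 8.53 and 8.54 in KO and 9.96 and 10.29 in WT (-1.59 ± 0.19, limma adjusted p = 0.15). Timd4, a receptor for dying cells on resident macrophages, was at -1.29 ± 0.47 and Icam2 at -0.93 ± 0.51, both with WT arrays more than 1 log2 unit apart. Adgre1, which encodes F4/80, was at -0.51 ± 0.20, while the abundant Lyz2 and Cd14 were at -0.07 ± 0.17 and -0.18 ± 0.17. Mertk (0.27 ± 0.21) and Fcgr1 (0.36 ± 0.36) had higher means. The median of these markers against the WT mean was -0.30 on KO array 1 and -0.43 on KO array 2, and 5 of 10 were lower on KO array 1 than on KO array 2. The part of these differences in the values of the B cell genes was not tested.

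Listed receptor signalling genes, many of which macrophages also use, had a smaller median difference than the surface markers. Of 24, 19 were measured, 13 had a lower mean, and the median was -0.14. Limma called 0, and 5 had an unadjusted p under 0.05 (9.34% of all genes did). Both KO arrays lay below both WT arrays for 10 (19.1% of all genes) and above them for 3 (20.8%). Malt1, a protease of the NF-kappaB branch, had log2 intensities of 9.80 and 9.48 in KO and 10.62 and 10.61 in WT (log2 change -0.97 ± 0.19, limma adjusted p = 0.27). Shared kinases and adaptors lay near 0, with Syk at 0.01 ± 0.24, Btk at -0.07 ± 0.18 and Blnk at 0.23 ± 0.18. The members Cd79b and Blk were thus among the lower values of this list.

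Among B lineage transcription factors 10 of 15 were measured and 8 had lower means, the median being -0.36. Limma called 0, and 3 had an unadjusted p under 0.05 (9.34% of all genes did). Both KO arrays lay below both WT arrays for 7 (19.1% of all genes) and above them for 1 (20.8%). Bcl11a, required for early lymphoid development, had log2 intensities of 7.26 and 7.72 in KO and 8.20 and 8.43 in WT (-0.82 ± 0.23, limma adjusted p = 0.391). Irf4, a factor of B cell activation and plasma cell fate that macrophages also express, had a log2 change of -0.55 ± 0.17 (limma adjusted p = 0.442). Spi1 and Irf8, which macrophages express strongly, had positive values (0.43 ± 0.24 and 0.24 ± 0.22).

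Of 8 plasma cell genes 4 were measured, with Sdc1 at 0.80 ± 0.25, Mzb1, a chaperone of B-1 and marginal zone B cells, at -1.10 ± 0.40, Irf4 as above and Xbp1 at 0.05 ± 0.17. Of 5 genes associated with B-1 cells 3 were measured, with log2 changes of -0.04 (Cd9), -0.03 (Ctla4) and 0.22 (Spn), while Cd5 and Bhlhe41 were not. Cd9 was bright on every array (log2 intensities of 14.41 to 14.70), and Ctla4 was detected on only 1 KO and 1 WT array. The content of B-1 cells was not tested. Limma called 0 genes of either list. An unadjusted p under 0.05 was found for 3 of the 4 plasma cell genes and 0 of the B-1 genes (9.34% of all genes). The 3 went in both directions, with Sdc1 higher and Irf4 and Mzb1 lower in KO. Class II presentation genes and their activator Ciita, a known target of ZBTB32 repression in mouse B cells, had a median of 0.02 over 11 measured, and Ciita had a log2 change of -0.27 ± 0.37. The lowest were H2-Ob (-1.09 ± 0.22, limma adjusted p = 0.272) and H2-Oa (-0.74 ± 0.29, limma adjusted p = 0.531), which form the DO modulator found mainly in B cells. Of this list 0 were called and 2 had an unadjusted p under 0.05 (9.34% of all genes did).

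**Figure D4:**
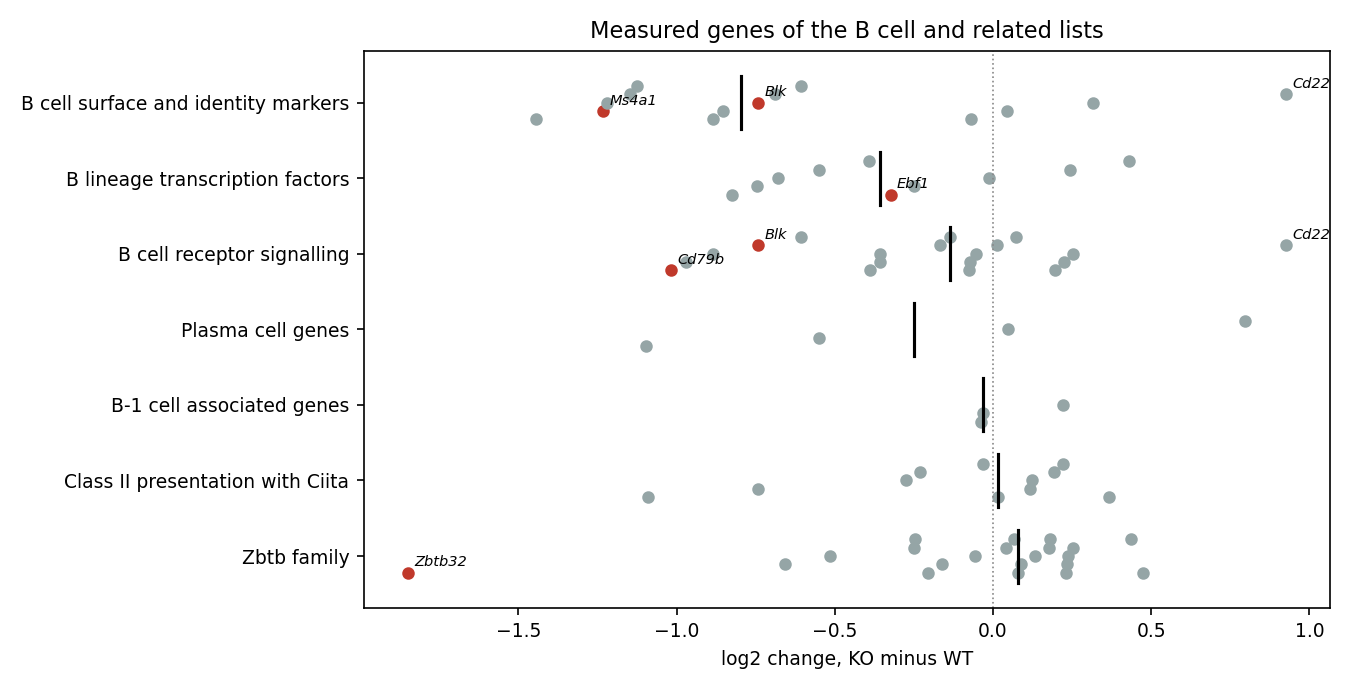
Log2 change (KO minus WT) of each measured gene of 7 lists, 1 point a gene, with the list median as a bar and members of the B cell and Zbtb32 set in red. The median lies at -0.80 for surface and identity markers and at 0.08 for the Zbtb family, in which Zbtb32 is the lowest point at -1.85.

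The other genes of the Zbtb family had smaller differences than Zbtb32. Of 38 genes with a probe and a symbol that begins with Zbtb, Zbtb32 included, 21 were measured, with a median of 0.08. The selection went by symbol alone and so held Zbtb8os. Zbtb32 was not tested, and 0 of the others were called. Zbtb7a, a repressor that acts in several blood lineages, was the 1 with an unadjusted p under 0.05, with log2 intensities of 11.05 and 10.89 in KO and 11.41 and 11.56 in WT (-0.52 ± 0.18, limma adjusted p = 0.493). Zbtb45 followed at 0.44 ± 0.18 (limma adjusted p = 0.539). Zbtb20, which acts in plasma cells, was at -0.25 ± 0.17.

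Array by array, the surface and identity markers, Blk and Ms4a1 among them, were mostly lower on KO array 1, as Cd79b was and Zbtb32 was not. Their median against the WT mean was -1.07 on KO array 1 and -0.55 on KO array 2, and 10 of 14 were lower on KO array 1 than on KO array 2, against 50.9% of all genes. All 10 measured lineage transcription factors and all 11 class II genes were lower on KO array 1 than on KO array 2 as well. The WT arrays differed for class II too, where 1 of 11 was lower on WT array 1 than on WT array 2. The class II sum was 110759 and 142360 in KO and 147687 and 106284 in WT, so KO array 1 lay within the WT range. Markers of other cells differed between these arrays too, which was compared after the values were seen. The summed background-corrected intensity of 5 measured B cell markers (Cd79b, Blk, Ms4a1, Ebf1 and Cd22, with Pax5 and Cr2 at background) was 2092 and 3533 on KO arrays 1 and 2, against 3859 and 4637 in WT. The sum of 3 measured mast cell markers of 7 was 138 and 318 in KO and 270 and 386 in WT, and that of 3 dendritic cell markers of 8 was 849.8 and 1137 in KO and 1020 and 1637 in WT. For T and NK cells, 2 of 12 markers were measured, Lat and Cd2, with Cd3d, Cd3e and Cd3g not among them. Their sum was 999.8 and 1144 in KO and 493 and 653 in WT. The 2 went in opposite directions. Lat, on the chromosome of Anpep, was higher in KO (log2 change 2.05 ± 0.41, limma adjusted p = 0.27), and Cd2 had a lower mean (-0.32 ± 0.47). For neutrophils, with 5 of 9 measured, it was 2991 and 2540 in KO and 1260 and 2956 in WT. The macrophage sum over 10 markers, to which Lyz2 and Cd14 contributed most, was 119835 and 113082 in KO and 128482 and 140005 in WT. The part of cell composition in the values of the B cell genes and Zbtb32 was not tested.

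**Figure D5:**
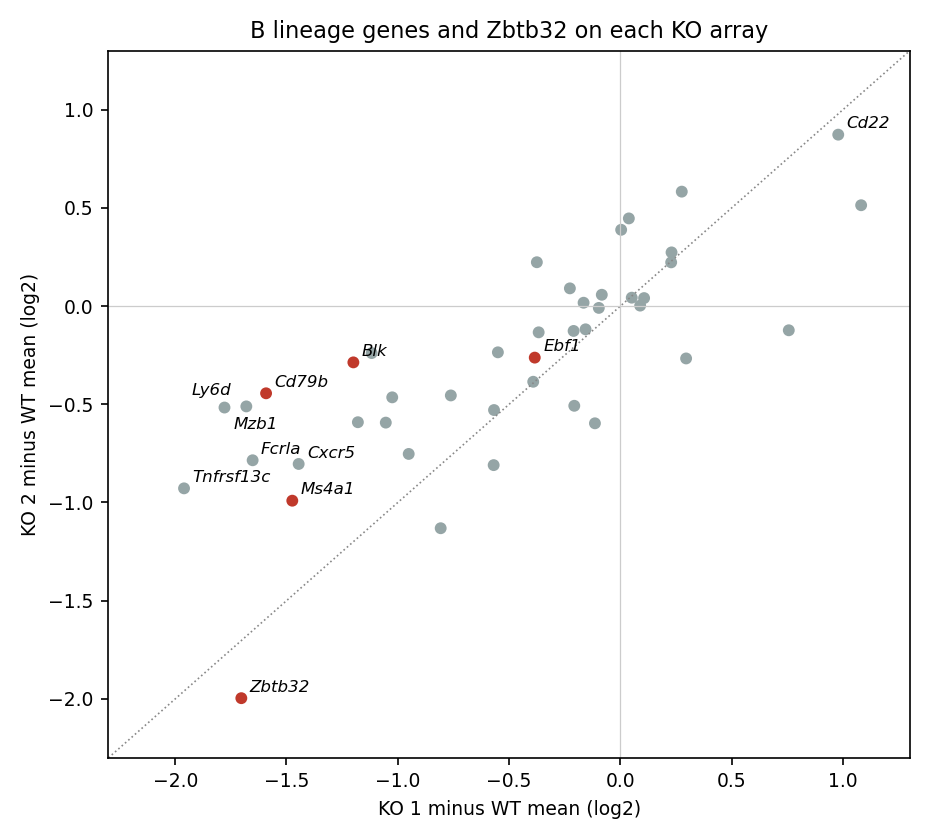
Normalized log2 intensity minus the WT mean on KO array 1 (horizontal) and KO array 2 (vertical), 1 point for each measured B lineage or plasma cell gene and for Zbtb32, with members of the set in red and the line of equal values dotted. Cd79b at -1.59 and -0.44 lies above the line with Mzb1 and Ly6d, and Zbtb32 at -1.70 and -2.00 lies below it.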

How the data were processed

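Bead intensities of 4 arrays were used (2 KO, 2 WT). The deposited signal table holds the linear intensity of each probe, not normalized across arrays, and the authors deposited a detection p-value beside each. The table of quantile normalized intensities, which the authors made in GenomeStudio per the series text, served as an alternative. The sources used here do not say whether background was subtracted before export.

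Background was corrected by normexp using the detection p-values, with an offset of 16, and quantile normalization and log2 followed (neqc steps of limma 3.58.1, R 4.3.3). Of 45281 probes, 14881 with a detection p under 0.01 on at least 2 arrays were kept, and the brightest kept probe stood for a gene, which gave 10335 genes and unnamed probes. Symbols came from the platform annotation, updated through RefSeq gene IDs (34807 probes). KO was compared with WT by lmFit and eBayes on all 4 arrays, adjusted over all genes by the Benjamini-Hochberg method (threshold 0.05). The fit was tested on simulated data.

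Members and lists were chosen with earlier results of these data known. Named beside the members were, for each of the 7 lists, the genes that passed or otherwise the 2 with the smallest unadjusted p, and the 3 genes nearest to each measured member (gene models without a name left out). Others were chosen after their values were seen. The number of arrays limits the precision.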

Additional observations from a re-analysis of the deposited data

How the results depend on the processing

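Directions of Cd79b, Blk, Ms4a1, Ebf1 and Zbtb32 were kept in each of the 15 or 16 other settings that measured them. Cd79b ranged over log2 changes of -1.59 to -0.44 (limma adjusted p = 0.0567 to 0.999), Blk over -1.20 to -0.29 (0.0896 to 0.999), Ms4a1 over -1.56 to -0.57 (0.0234 to 0.919) and Ebf1 over -0.66 to -0.17 (0.261 to 0.999). Zbtb32, -1.85 above, was -1.28 without background correction, -1.64 with an offset of 50, -1.34 with the authors' values and -2.20 with median scaling, and -2.00 to -1.70 without single arrays. The first 3 of these add more to low values or subtract nothing from them, which shrinks log2 differences by construction.

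Scaling arrays to equal medians of all probes put the median log2 change of all genes at -0.33, against 0.01 above. Then 1 B cell member, Ms4a1, was called (-1.49, or -1.16 relative to that median, limma adjusted p = 0.0234). Of 76 listed genes measured, Zbtb32 left out, 10 were called, all lower: Bcl11a, Cxcr5, Fcmr, Fcrla, H2-Ob, Ly6d, Malt1, Ms4a1, Mzb1 and Tnfrsf13c, by -1.48 to -0.86 relative to the same median. Over all 10335 genes and unnamed probes this setting called 194 lower and 15 higher, so 92.8% of all its calls were lower. No other setting called a listed gene or B cell member.

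Over all genes there were 5 higher and 5 lower calls. Lower calls numbered 8 with an offset of 50, 8 with the authors' values (6 higher), 9 when each kept probe was fitted, 10 with no background correction (7 higher) and 10 under an intensity trend (6 higher). Median scaling gave 15 higher and 194 lower (lower share 92.8% against 50%). Omitting the dim-probe filter, which adds genes, gave 3 higher and 2 lower, as did omitting the chromosome of Anpep, and requiring detection on all 4 arrays gave 1 higher and 3 lower. Dropping 1 array, with the lone array taken to vary like the opposite group, gave 3 to 7 higher and 1 to 4 lower. The cause of these shifts was not tested beyond what their construction shows. With the replicate number as a block there were 6 higher and 7 lower calls and 0 B cell members (limma adjusted p = 0.266 for Cd79b and 0.168 for Ms4a1). Same-numbered arrays did not deviate together over all genes (r = -0.0239 across genes, which are not independent), and the main fit did not treat the numbers as pairs. This r covers all genes and cannot decide pairing for a few of them. Cd79b, Blk and Ms4a1 were higher on array 2 than on array 1 in both groups, while Ebf1 and Zbtb32 were not. Pax5 and Cr2, at background, could show no difference at this signal.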
